A study of Mus musculus with 12 samples.

Results

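Gm14295, Zfp970, Gm14403 and Gm14325 are 4 protein-coding zinc finger genes that lie within a 2 Mb window of mouse chromosome 2 (build GRCm38), out of 54146 genes counted in RNA sequencing of adult retinas. They were listed because earlier results of these data showed their counts to be either near 0 or well above it in a given library, so the levels below describe them and carry no test. The study deleted Otx2, a homeobox transcription factor of photoreceptors, bipolar cells and the retinal pigment epithelium, from the photoreceptors of adult mice. The tamoxifen-activated Cre recombinase came from a Crx-CreERT2 transgene, made to act in photoreceptors. Whole retinas were sequenced from 3 control mice at P30 (mice 1 to 3) and from 3 knock-out (cKO) mice at each of P32 (mice 4 to 6), P34 (mice 7 to 9) and P38 (mice 10 to 12), which corresponded to 2, 4 and 8 days after induction. Each library came from a separate mouse. Per the study's methods, the mice were kept on a 129/SV background and both sexes were used. The reads were aligned to mm10, and the RefSeq record of that assembly gives its strain as C57BL/6J. Age, tamoxifen and the deletion changed together between the controls and the cKO mice, so they cannot be told apart. Sex was not balanced either, since Xist, the RNA of the inactive X chromosome, exceeded 1000 counts in all 3 control libraries but in 2 of 3 P32, 1 of 3 P34 and 1 of 3 P38 libraries, and the Y-linked Ddx3y did so in the remaining libraries.

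Genes of this family encode proteins in which tandem C2H2 zinc fingers bind DNA. Most such genes in mouse clusters also encode a KRAB domain, which recruits the corepressor TRIM28 and, through it, the histone methyltransferase SETDB1, and the complex is known for silencing transposable elements. The genes arose by repeated duplication, stand in clusters of closely similar copies, and differ in number and sequence between mouse strains. Gm14295 (ENSMUSG00000078877) lies at chr2:176798612-176811223 on the plus strand, Zfp970 (ENSMUSG00000078866) at chr2:177464733-177478129 on the plus strand, Gm14403 (ENSMUSG00000094786) at chr2:177498215-177509763 on the plus strand and Gm14325 (ENSMUSG00000095362) at chr2:177831791-177840336 on the minus strand.

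The promoters of the 4 genes are shown first because they were almost the same sequence, which bears on how the genes are told apart and on what they share. Each window holds 300 bases, from 250 before to 50 after the transcription start in the RefSeq annotation of GRCm38.p6. The windows lie at chr2:176798350-176798649 (plus strand, Gm14295), chr2:177464492-177464791 (plus strand, Zfp970), chr2:177497976-177498275 (plus strand, Gm14403) and chr2:177840287-177840586 (minus strand, Gm14325). The capitals mark the longest run of bases that all 4 windows share, which is 59 bases long.
Gm14295: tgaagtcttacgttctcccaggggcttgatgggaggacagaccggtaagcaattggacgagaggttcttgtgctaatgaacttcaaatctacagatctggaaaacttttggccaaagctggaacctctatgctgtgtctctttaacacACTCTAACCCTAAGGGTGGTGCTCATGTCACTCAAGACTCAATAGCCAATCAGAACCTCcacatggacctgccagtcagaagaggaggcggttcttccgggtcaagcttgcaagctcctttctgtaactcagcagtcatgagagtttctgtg
Zfp970: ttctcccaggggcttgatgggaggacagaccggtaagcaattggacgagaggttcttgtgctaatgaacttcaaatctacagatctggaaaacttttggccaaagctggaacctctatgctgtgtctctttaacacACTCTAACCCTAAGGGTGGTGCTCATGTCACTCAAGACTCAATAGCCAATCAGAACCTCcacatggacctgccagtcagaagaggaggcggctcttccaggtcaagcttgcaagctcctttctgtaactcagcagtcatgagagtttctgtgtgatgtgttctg
Gm14403: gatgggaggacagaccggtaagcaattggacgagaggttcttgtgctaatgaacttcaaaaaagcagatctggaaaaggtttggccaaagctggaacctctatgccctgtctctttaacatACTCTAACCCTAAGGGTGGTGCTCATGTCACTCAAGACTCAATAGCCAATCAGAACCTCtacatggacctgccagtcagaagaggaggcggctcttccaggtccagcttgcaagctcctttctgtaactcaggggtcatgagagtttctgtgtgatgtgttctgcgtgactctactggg
Gm14325: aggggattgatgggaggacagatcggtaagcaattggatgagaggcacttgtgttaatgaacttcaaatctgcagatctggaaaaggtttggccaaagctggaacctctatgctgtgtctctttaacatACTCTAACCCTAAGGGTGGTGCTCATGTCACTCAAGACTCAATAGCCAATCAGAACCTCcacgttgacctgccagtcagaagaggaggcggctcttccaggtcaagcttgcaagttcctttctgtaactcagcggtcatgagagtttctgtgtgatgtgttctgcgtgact

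The 6 pairs of these promoter windows were 94.3% to 99.3% identical over their aligned bases. The 59-base run began at position 149, 137, 122 and 130 of the window of Gm14295, Zfp970, Gm14403 and Gm14325, respectively. On either strand it was found in 26 of 32851 RefSeq promoter windows (0.0791%), which belonged to 22 genes, all of them between positions 175274875 and 178023333 of chromosome 2. Inside the run stands a CCAAT motif, which 37.4% of all promoter windows hold on either strand. TATAAA was in 0 of the 4 windows and in 13.6% of all windows, and GGGCGG was in 0 of the 4 and in 35.7% of all windows. A match of letters is a description of the sequence and does not show a bound site.

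The 4 genes were present in 5 libraries and nearly absent from the other 7. The 5 libraries were those of mice 1 and 2 at P30, mouse 6 at P32 and mice 10 and 11 at P38, and they were the same for every one of the 4 genes. Thus 2 of 3 control libraries, 1 of 3 P32 libraries, 0 of 3 P34 libraries and 2 of 3 P38 libraries held the transcripts. The retina is a mixture of cells, and fewer cells of a type and less RNA per cell cannot be told apart in such libraries. The counts also cover only reads with a single position on a reference from another strain. A count near 0 therefore does not by itself show that no RNA was made, and this was not tested.

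Gm14295 had 79, 89 and 0 counts in the P30 mice 1, 2 and 3, then 0, 0 and 57 in the P32 mice 4, 5 and 6. It had 1, 0 and 1 counts in the P34 mice 7, 8 and 9, and 110, 98 and 1 in the P38 mice 10, 11 and 12. Mice of the same age therefore stood on opposite sides, with the third P30 mouse at 0 and the other P30 mice near the level of the cKO mice 10 and 11. CPM values put the counts of each library on a common scale by its total. In CPM, the 5 libraries with the transcript were at 1.25, 1.80, 1.40, 2.67 and 2.30 in the order of mice 1, 2, 6, 10 and 11. The highest of these was 2.14-fold above the lowest, whereas the lowest was at least 12.2-fold higher than the level that 3 counts, the floor used here, would give in any of the other 7 libraries.

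Zfp970 had 103, 108 and 1 counts in the P30 mice, 0, 0 and 80 in the P32 mice, 0, 0 and 0 in the P34 mice, and 71, 77 and 0 in the P38 mice, in the order of the mice. The 5 libraries with the transcript were at 1.62, 2.18, 1.97, 1.72 and 1.81 CPM, a spread of 1.34-fold. This was the narrowest spread among the 4 genes, and the 3 cKO libraries lay between the 2 control libraries. The lowest of the 5 was at least 16.0-fold higher than the 3-count floor of the other libraries.

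Gm14403 had 54, 45 and 0 counts in the P30 mice, 0, 0 and 57 in the P32 mice, 0, 0 and 0 in the P34 mice, and 72, 71 and 0 in the P38 mice. It was the member with 0 counts in all 7 of the remaining libraries. The 5 libraries with the transcript were at 0.852, 0.909, 1.40, 1.75 and 1.67 CPM, and the lowest was at least 8.36-fold higher than the 3-count floor of the others. Here both P30 libraries were below the 3 cKO libraries, and the highest level was 2.05-fold above the lowest.

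Gm14325 had 120, 99 and 0 counts in the P30 mice, 0, 0 and 68 in the P32 mice, 0, 1 and 0 in the P34 mice, and 111, 86 and 0 in the P38 mice. The 5 libraries with the transcript were at 1.89, 2.00, 1.68, 2.69 and 2.02 CPM, a spread of 1.61-fold, and the lowest was at least 16.5-fold higher than the 3-count floor of the others. As with the other members, no library was at an intermediate level.

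**Figure D1:**
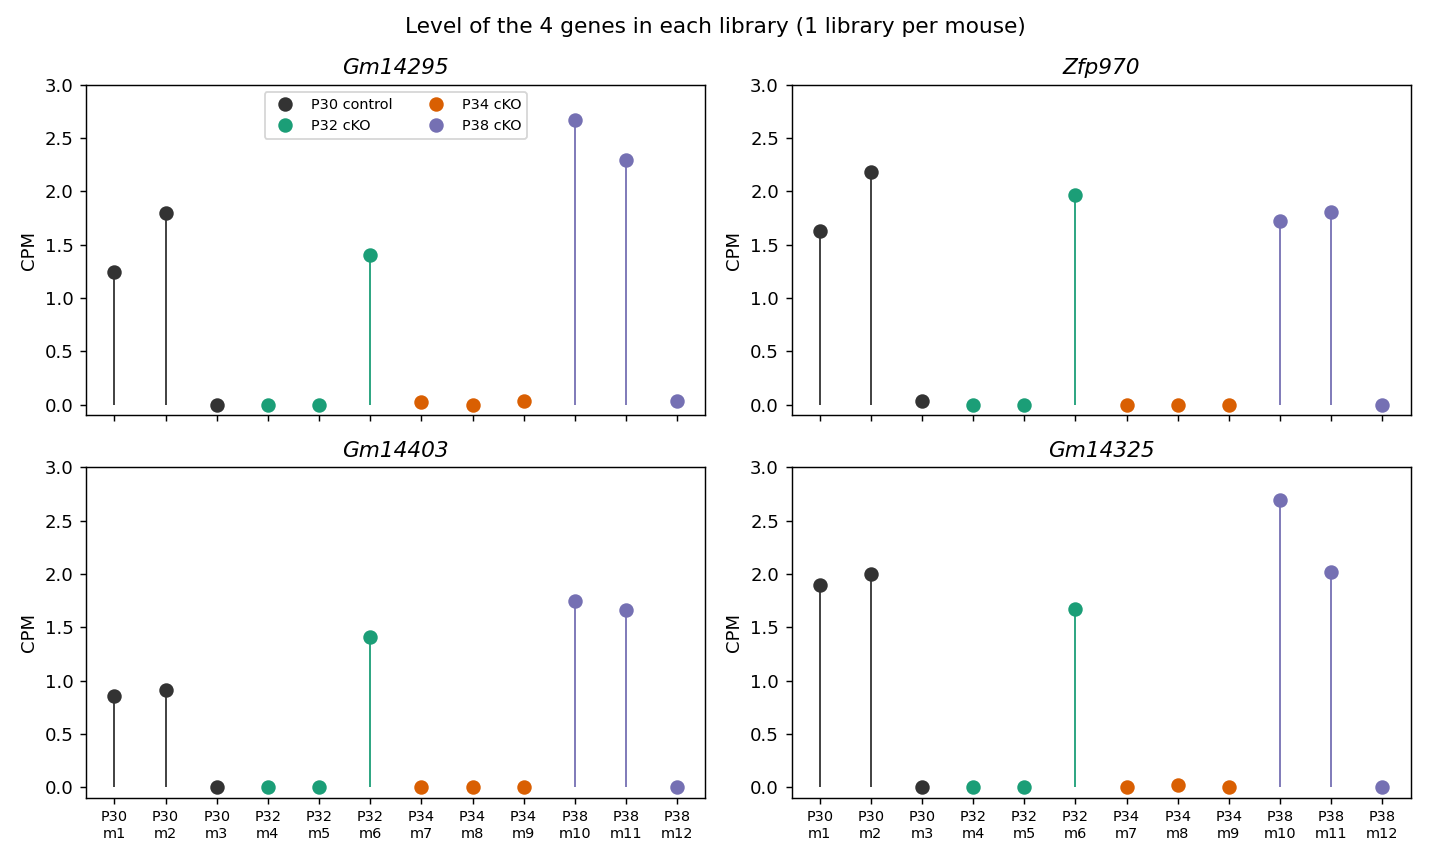
Level of Gm14295, Zfp970, Gm14403 and Gm14325 (CPM, linear axis) in each of the 12 libraries, 1 point per mouse, with the conditions P30, P32, P34 and P38 along the horizontal axis. The same 5 libraries, of mice 1, 2, 6, 10 and 11, lie at 0.852 CPM or above in all 4 panels, and the other 7 lie at 1 count or fewer.

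Had Gm14295 been present in them at the lowest CPM of the 5, they would have held 36.7 to 50.9 counts each, and the same figure was 47.9 to 66.3 counts for Zfp970, 25.1 to 34.8 for Gm14403 and 49.4 to 68.4 for Gm14325. The observed maximum was 1 count for Gm14295, Zfp970 and Gm14325 and 0 for Gm14403. A count of 0 allowed up to 3 counts, which corresponded to 0.0473 to 0.102 CPM across the 12 libraries, for counting error only.

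Mean levels by condition had wide standard deviations, and at P30, P32 and P38 each condition held mice with and without the transcripts. Gm14295 was at 1.01 ± 0.921 CPM at P30, 0.468 ± 0.811 at P32, 0.0205 ± 0.0180 at P34 and 1.67 ± 1.43 at P38 (SD, n = 3 each). Gm14325 was at 1.30 ± 1.12, 0.559 ± 0.968, 0.00817 ± 0.0141 and 1.57 ± 1.40 CPM at the same ages. The order from high to low was P38, P30, P32 and P34 for both, and no neighbours in that order differed beyond their spread.

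Gm14403 followed the same order, with 1.137 ± 0.986 CPM at P38, 0.587 ± 0.509 at P30, 0.468 ± 0.811 at P32 and no count at P34 (SD, n = 3 each). For Zfp970, P30 came first with 1.28 ± 1.12 CPM, followed by P38 with 1.18 ± 1.02, P32 with 0.657 ± 1.138 and P34 with no count. P34 was the condition in which no mouse had more than 1 count for any of the 4 genes, but it shared values of 0 or 1 count with at least 1 mouse of every other condition.

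To see how often such a break occurs, the 12 log2 CPM values of each of 18628 tested genes were sorted, and the largest step between neighbouring libraries was taken as the gap of that gene. A prior count of 2 was added, which holds the gap down for genes near 0. The gap was 3.95 log2 units for Gm14295, 4.39 for Zfp970, 4.17 for Gm14403 and 4.53 for Gm14325, which ranked 21, 16, 19 and 13 of all tested genes. A gap of at least 2 log2 units, between any libraries, occurred in 267 genes (1.43%). These ranks describe the values by which the members were picked.

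The division into the same 5 and 7 libraries, with a gap of at least 1 log2 unit, occurred in 11 tested genes of 18628 (0.0591%). Beside the 4 members these were 7 genes, all 7 higher in the same 5 libraries and none in the opposite direction. All 7 lay in the same stretch of chromosome 2 as the members, and 0 lay elsewhere in the genome. They were Zfp971 with a gap of 3.47 log2 units, Gm14418 with 3.37, Gm14305 with 3.17, Gm14326 with 3.14, Gm14322 with 2.74, Gm14410 with 2.71 and Gm14412 with 1.77. They were named for sharing the division, so their gaps are a description too.

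**Figure D2:**
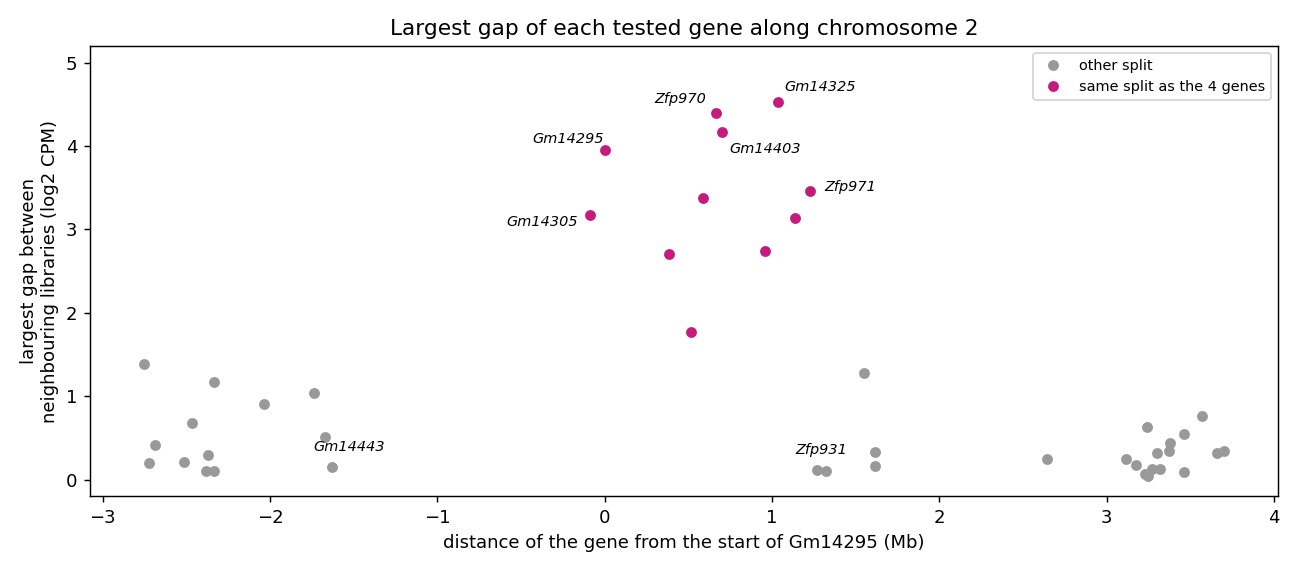
Largest gap between neighbouring libraries (log2 units) of each tested gene along chromosome 2 around the 4 members, plotted by its distance from the start of Gm14295 (Mb), with genes that share the division of libraries drawn apart from the other genes. The 11 genes that share it, with gaps of 1.77 to 4.53, stand side by side, and the nearest gene after them, Zfp931, has a gap of 0.12.

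Zfp971 (ENSMUSG00000074519, chr2:178023284-178034022, plus strand) had 103, 98 and 0 counts in the P30 mice, 0, 1 and 68 in the P32 mice, 0, 3 and 3 in the P34 mice and 97, 116 and 0 in the P38 mice. Gm14305 (ENSMUSG00000078878, chr2:176708328-176721813, plus strand) had 64, 72 and 0 counts, 0, 2 and 51, 2, 1 and 2, and 50, 59 and 1 at the same ages. These genes were the outermost tested genes with the division, and their counts in the 7 low libraries reached 3 and 2. Gm14326, Gm14418, Gm14410, Gm14412 and Gm14322 had lower totals, with 13 to 58 counts in each of the 5 libraries and 0 to 2 in the others.

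From the start of Gm14305 to the end of Zfp971 the 11 genes spanned 1.33 Mb, and every tested gene in the span shared the division. On the distal side the next tested gene, Zfp931 (ENSMUSG00000078861, chr2:178067695-178078476, minus strand), also a zinc finger gene, was at 10.7 to 14.6 CPM across the 12 libraries with a gap of 0.12 log2 units. Phactr3, a regulator of protein phosphatase 1 and actin that lies beyond it, was at 25.7 to 35.0 CPM with a gap of 0.11. On the proximal side Gm14443 (ENSMUSG00000078902, chr2:175166255-175175871, minus strand) was at 2.84 to 5.17 CPM with a gap of 0.15, and it ended 1.53 Mb before the start of Gm14305. No gene between Gm14443 and Gm14305 had enough counts to be tested, so where the division ends on that side was not observed. Gm14399 was at 1.02 to 2.72 CPM with a gap of 0.51, and Gm14393, with 2 to 24 counts, had a gap of 1.04 and a different division. Gm14443, Gm14399, Zfp931 and Phactr3 were thus present in all 12 libraries, including the 7 in which the 4 members were nearly absent.

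**Figure D3:**
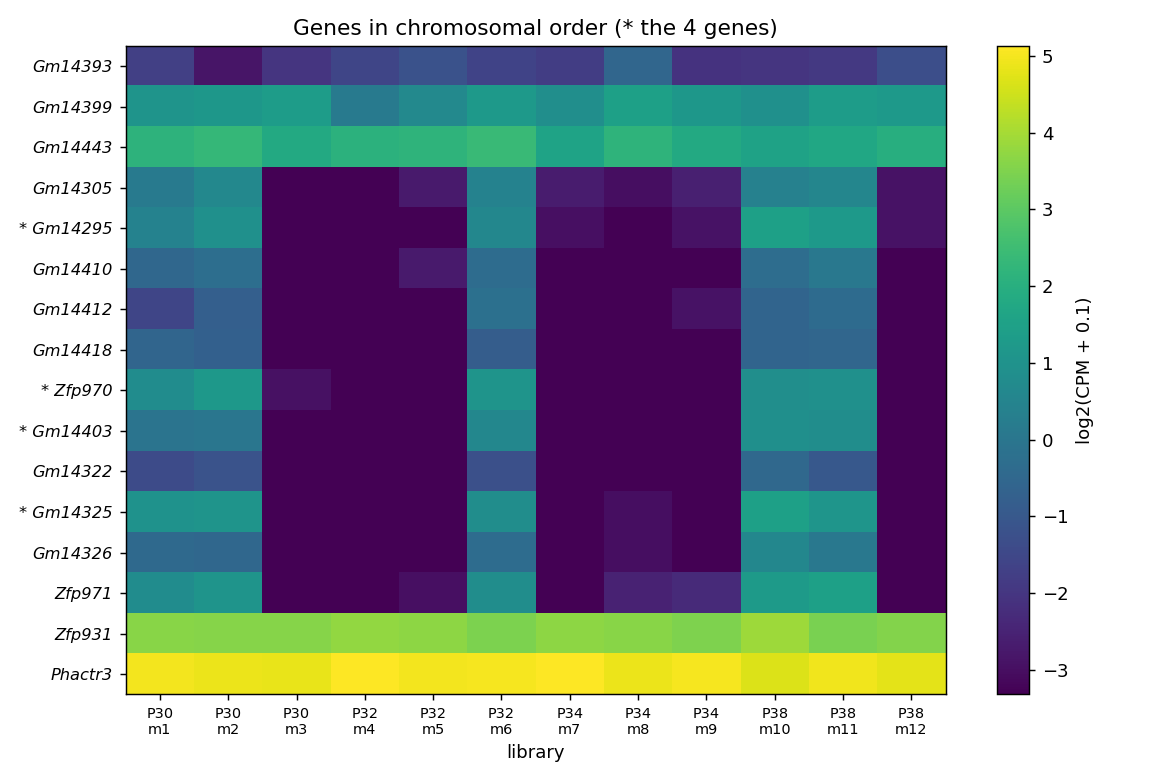
Level of the tested genes in order along chromosome 2 (rows; log2 of CPM plus 0.1) in the 12 libraries (columns, by condition). The 11 genes from Gm14305 to Zfp971 are high in the columns of mice 1, 2, 6, 10 and 11 and low in the other 7, whereas Gm14443 and Zfp931 outside them are present in all 12.

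The 2 Mb window held 52 counted genes, from chr2:176097450 to chr2:177982700, of which 26 were protein coding. Apart from the 4 members there were 48, of which 21 had 0 counts in every library and 27 had at least 1 count. Only 6 of the 48 passed the filter on low counts, and all 6 shared the division. A gene that is high in some libraries and near 0 in others passes such a filter through the libraries where it is high, so this count is no support for the division. The 21 genes that did not pass the filter but had counts held in sum 53, 36 and 8 counts in the P30 mice, 2, 1 and 43 in the P32 mice, 2, 1 and 3 in the P34 mice and 20, 42 and 3 in the P38 mice. Their sum was thus highest in the same 5 libraries, at 20 or more counts against 8 or fewer.

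Summed over the 4 members, the counts were 356, 341 and 1 for the P30 mice, 0, 0 and 262 for the P32 mice, 1, 1 and 1 for the P34 mice, and 364, 332 and 1 for the P38 mice. Summed over all 11 genes, they were 673, 643 and 1 for the P30 mice, 0, 5 and 500 for the P32 mice, 3, 6 and 7 for the P34 mice, and 670, 658 and 2 for the P38 mice. In CPM the 11-gene sum was 10.6 (95% exact Poisson interval 9.83 to 11.4) in mouse 1, 13.0 (12.0 to 14.0) in mouse 2, 12.3 (11.3 to 13.5) in mouse 6, 16.3 (15.0 to 17.5) in mouse 10 and 15.4 (14.3 to 16.7) in mouse 11. In the other 7 libraries it was 0 to 0.237 CPM, with no upper bound above 0.488. The intervals cover counting error only, and those of mice 10 and 11 at P38 lay above those of the P30 mice 1 and 2.

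**Figure D4:**
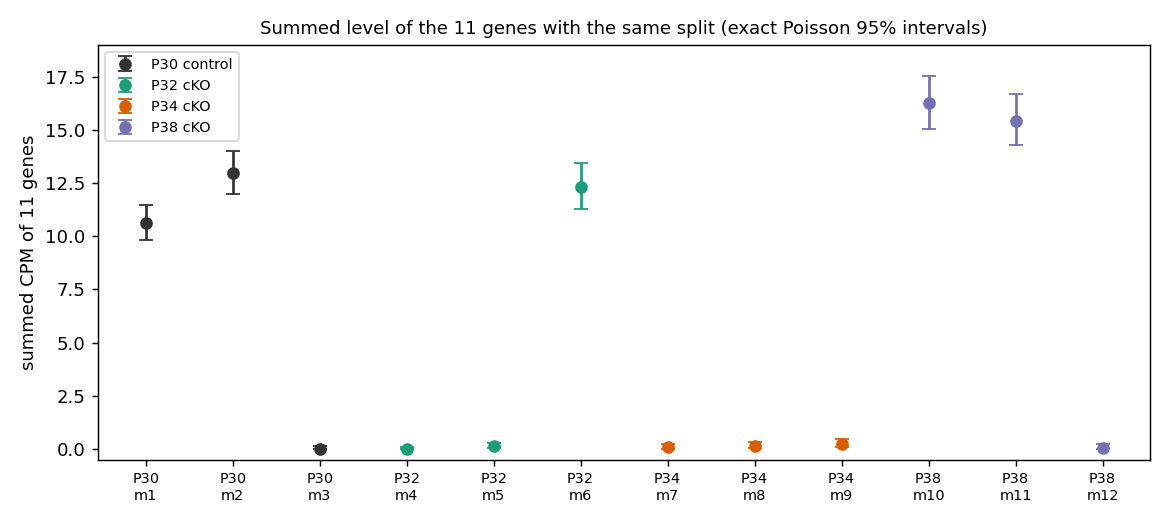
Summed level of the 11 genes that share the division (CPM) in each of the 12 libraries, with 95% exact Poisson intervals that cover counting error only. Mice 1, 2, 6, 10 and 11 lie between 10.6 and 16.3 CPM and the other 7 at 0.237 CPM or below.

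The part of this sum that each member took varied between the 5 libraries. Gm14325 took 13.1% to 17.8% of it (median 15.4%), Zfp970 10.6% to 16.8% (median 15.3%), Gm14295 11.4% to 16.4% (median 13.8%) and Gm14403 6.998% to 11.4% (median 10.7%). Among the other genes Zfp971 took the largest part, 13.6% to 17.6% (median 15.2%).

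Other measures of the libraries were set beside the division. Counts on genes were 38947378 to 60145034 in the 5 libraries with the transcripts and 29701483 to 40737548 in the 7 without, so that 4 of the 5 were deeper than any of the 7. Reads with no unique position were 23.7% to 28.5% and 24.5% to 32.2%. Summed markers of rods were at 70110 to 116700 CPM and 63881 to 105070 CPM, those of cones at 1178 to 1629 and 1233 to 1525 CPM, those of the retinal pigment epithelium at 108 to 455 and 136 to 554 CPM, those of lens at 532 to 13668 and 280 to 45742 CPM and those of smooth muscle at 11.03 to 181.2 and 9.33 to 198 CPM. Xist exceeded 1000 counts in 3 of the 5 and in 4 of the 7, and the Y-linked Ddx3y did so in 2 and in 3, so both sexes occurred on both sides. The part of these measures in the division was not tested, and the labels give no litter, pedigree or preparation date by which the mice could be sorted.

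Otx2 itself was at 293 to 328 CPM in the 3 control libraries and at 307 to 377 CPM in the 9 cKO libraries. The deletion removes part of the gene, so a count over the whole gene does not check the genotype. The study checked the deletion by the ratio of reads on the deleted exon to reads on a neighbouring exon. It reported a lower mean ratio at P32, P34 and P38 than at P30.

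Because the copies are so alike, the part of each gene that a 50-base read can place was computed from the annotated transcripts of GENCODE M21. Of the distinct 50-base windows in its transcripts, 737 of 2921 (25.2%) in Gm14295 were found in no other gene, against 969 of 1925 (50.3%) in Zfp970, 1027 of 1608 (63.9%) in Gm14403 and 273 of 1538 (17.8%) in Gm14325. Gm14295 shared most with Gm14419 (59.9% of its windows), Zfp970 with Gm14288 (27.8%), Gm14403 with Gm4631 (19.3%) and Gm14325 with Gm14326 (70.4%). Each member shared windows with 53 to 65 genes. Only reads with a single position were counted, so reads from the shared windows were left out of the counts of all 4.

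**Figure D5:**
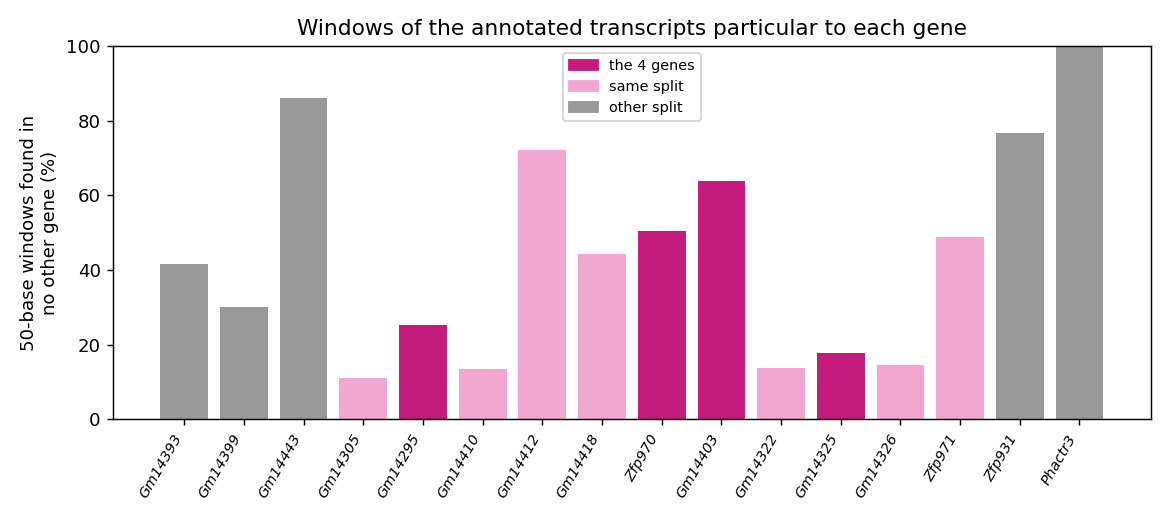
Share of distinct 50-base transcript windows found in no other gene (percent, bars from 0) for the 4 members and genes around them. Gm14325 (17.8%) and Gm14295 (25.2%) have fewer such windows than Zfp970 (50.3%) and Gm14403 (63.9%), and Phactr3 (99.8%) and Zfp931 (76.7%) have more than any member.

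The 6 tested neighbours in the 2 Mb window had 11.1% to 72.2% unique windows (median 14.2%), and its 16 untested protein-coding genes had 0% to 56.9% (median 8.43%). Zfp931 had 76.7% and Gm14443 had 86.0%. Per 1000 unique windows, which puts the genes on one scale of length, Gm14325 was at 6.14 to 9.86 CPM in the 5 libraries (median 7.32), Gm14295 at 1.69 to 3.62 (median 2.44), Zfp970 at 1.68 to 2.25 (median 1.86) and Gm14403 at 0.829 to 1.70 (median 1.37). On this scale Gm14325 was above the other 3 members in the 5 libraries and overlapped Zfp931, which was at 6.14 to 8.39 in all 12. The range of Zfp970 lay almost wholly inside that of Gm14295, and Gm14403 met both only at the top of its range.

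The promoters did not separate the genes that shared the division from Zfp931 by identity. Of the 11 genes, 9 had a promoter window in the RefSeq table, and their 36 pairs were 93.5% to 99.3% identical. The windows of the 4 members were 94.4% to 97.8% identical to that of Zfp931, which was present in every library. The 59-base run was in 7 of the 9, of which the 4 members hold it by construction, and was not in the window of Zfp931. Of the 22 genes with the run, the other 15 did not pass the low-count filter, and 12 of them had 0 counts in every library. Among these 12, Gm2004, 2210418O10Rik, Gm14434 and Zfp967 had 0% unique 50-base windows, so their counts of 0 do not show that they were silent. CCAAT was in all 9 windows and in that of Zfp931.

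The comparison the study was designed for, cKO retinas against P30 controls, was fitted over all genes with edgeR's quasi-likelihood test and Benjamini-Hochberg adjustment. A gene was called where the adjusted p did not exceed 0.05 and the fold reached 0.5 log2 units either way. Of 18628 tested genes this gave 123 at P34 (0.66%), all of them lower, and 0 at P32 and at P38 (0.0% each). At an unadjusted p of at most 0.05 with that fold, edgeR gave 540 genes at P32, 1168 at P34 and 645 at P38. Of the 1168, 1009 were lower (5.42% of all tested genes). DESeq2, at its own adjusted p of at most 0.05 and the same fold, called 25 genes at P32 (0.134%), 369 at P34 (1.98%) and 45 at P38 (0.242%). Summed markers of smooth muscle were at 29.5 to 198 CPM in the P30 libraries and at 9.33 to 13.9 CPM in the P34 libraries, and those of lens were at 532 to 39434 and at 280 to 764 CPM. Those of rods went the other way, from 70701 to 77150 CPM at P30 to 80041 to 105070 CPM at P34. The part of these cells and of sex in the calls was not tested. Of the 4 members 0 were called at each age by edgeR, and at an unadjusted p of at most 0.05 with the same fold limit it gave 4 at P34, all lower, and 0 at P32 and P38. DESeq2 called 0 of the 3 members to which it gave an adjusted p. The members were chosen from these libraries, so these counts are a description. The 3 comparisons share the P30 libraries.

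The 6 tested neighbours, Gm14305, Gm14410, Gm14412, Gm14418, Gm14322 and Gm14326, were compared between the conditions in the same fit. Of the 6, 0 were called at each age by edgeR and 0 by DESeq2, and at an unadjusted p of at most 0.05 with the fold limit edgeR gave 5 at P34, all lower, and 0 at the other ages, beside 5.42% of all genes lower at P34. All 6 share the members' division and passed the filter through the libraries where they are high, so these counts are a description too. As the P34 libraries were at or near 0 counts for all 6, their fitted folds depend on the prior count and are not given. At P34 all 3 mice fell in the low state of the region, as did 2 of 3 P32 mice, 1 P30 mouse and 1 P38 mouse.

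The partners through which KRAB zinc finger proteins silence chromatin were measured in the same retinas. Of 32 genes listed for this machinery all 32 were tested, and 0 were called at P32, P34 or P38 by edgeR's quasi-likelihood test or by DESeq2. At an unadjusted p of at most 0.05 with the fold limit, edgeR gave 0, 1 and 0 genes, beside 540, 1168 and 645 of all 18628. The 1 gene was Uhrf1, which recognises hemimethylated DNA, with an adjusted p of 0.403 by edgeR's quasi-likelihood test at P34, and it is named after its value was seen. It lay at 0.141 to 0.694 CPM in the P30 libraries. In the P34 libraries it lay at 0.0339 to 0.166 CPM, near the 3-count floor, so its fitted fold is not given. At P32 the list's median log2 fold change was -0.16, beside -0.0088 over all tested genes. At P34 the medians were -0.0012 and -0.0013, and at P38 they were 0.04 and -0.0091.

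Trim28, the scaffold of the complex, was at 167 ± 21.5 CPM at P30, 194 ± 15.5 at P32, 159.8 ± 1.49 at P34 and 163.5 ± 3.27 at P38 (SD, n = 3 each). Setdb1, the methyltransferase, was at 61.9 ± 4.75, 54.9 ± 6.29, 54.1 ± 7.40 and 58.3 ± 4.19 CPM at the same ages. Both were present in every library, unlike the 4 zinc finger genes.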

How the data were processed

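RNA of whole retinas from 12 mice was sequenced in 50-base reads. The authors demultiplexed the reads with bcl2fastq 2.17.1.14, used STAR 2.5.3a for the alignment to mm10 and, for reads with a single position, HTSeq 0.6.1p1 in union mode for the counting per gene. The deposited values are these raw counts, with no normalization, and 29701483 to 60145034 fell on genes per library. The 5 summary lines of each file were left out of library sizes. From 6.53% to 13.7% of reads fell on no gene. No 2 libraries held the same values.

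Genes that passed edgeR's filter on low counts (18628) were fitted with edgeR 4.0.16 (R 4.3.3) over the 4 conditions with TMM scaling and 1 mean per condition. The limits for a call were 0.05 for the p adjusted after Benjamini-Hochberg and 0.5 log2 units for the fold. DESeq2 1.42.0 was an alternative. The fit was tested on simulated counts. CPM used TMM-scaled totals, and gaps used log2 CPM with a prior count of 2. Means, SDs and gaps of the members carry no test.

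Gene positions came from GENCODE M21, which named 99.9% of the genes, and promoters from RefSeq, GRCm38.p6. Windows of 50 bases were compared between annotated transcripts on either strand, in place of the genome, so copies outside annotated transcripts were not seen. Promoter windows were aligned with Biopython 1.88 in Python 3.11.15.

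The members and the gene lists were chosen with earlier results of these data known. Genes named beside the members were the tested genes of the region with a gap of at least 2 log2 units, up to 10 genes with the members' division of libraries and a gap of at least 1, the 3 nearest tested genes on either side, the 3 neighbours with the highest mean CPM and any listed gene past the threshold. Alternatives were another prior count, no filter, DESeq2 or its size factors, only the 2 conditions compared, 40-base windows, and each mouse left out in turn.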

Additional observations from a re-analysis of the deposited data

How the results depend on the processing

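The division of the 4 members' libraries was the same with DESeq2's size factors, with a prior count of 0.5 and, in a check added after the data were seen, without the low-count filter. Their gaps ranged over the alternatives from 3.95 to 4.76 log2 units for Gm14295, 4.39 to 5.28 for Zfp970, 4.17 to 6.11 for Gm14403 and 4.53 to 5.51 for Gm14325. The 7 other genes with the same division became 9 without the low-count filter and 6 at a gap of at least 2. Leaving out 1 mouse of either condition compared turned the sign of the members' difference in mean log2 CPM from P30 in 12 of 24 cases at P38 and in 0 of 24 at each of P32 and P34. The 4 members share 1 division and were picked by these values, so the cases are not independent. The division itself fixes the signs at P32 and P34, and they are a description that shows no stable decrease. Over all genes, the calls at P32, P34 and P38 were 23, 298 and 18 without the filter and 25, 369 and 45 with DESeq2, against 0, 123 and 0, and 229 at P34 with only the 2 conditions compared. Leaving out 1 mouse gave 0 to 19, 43 to 213 and 0 to 13 calls. Tested neighbours called stayed at 0 in all 47 alternatives that gave a value, and KRAB corepressor genes in all 48. With only the 2 conditions, no neighbour passed the filter at P34. The cause of these moves was not tested. Unique 40-base windows made up 20.3% of Gm14295, 40.7% of Zfp970, 53.6% of Gm14403 and 14.7% of Gm14325. No paired analysis was possible because the conditions share no replicate numbers, with mice 1 to 3, 4 to 6, 7 to 9 and 10 to 12.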

Other observations

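Among 365 tested protein-coding genes whose symbols begin with Zfp, 18 had a gap of at least 1 log2 unit and 5 a gap of at least 2. The 5 were Zfp871, Zfp971, Zfp970, Zfp429 and Zfp804b, which were named after their values were seen, and Zfp970 and Zfp971 were those with the division of the 4 members. The median gap of the 365 genes was 0.2 log2 units, beside 0.31 over all tested genes.

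Without the low-count filter, Gm14296 and Gm14429 also had the members' division, and both were named after their values were seen. Gm14296 had 10, 5 and 0 counts in the P30 mice, 0, 0 and 12 in the P32 mice, 0, 0 and 0 in the P34 mice, and 3, 14 and 0 in the P38 mice. Gm14429 had 12, 4 and 0 counts, 0, 0 and 4, 0, 0 and 0, and 3, 6 and 0 at the same ages.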
